A study of Mus musculus with 8 samples.

Results

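Mammary gland cells with a high signal from a lacZ reporter in the Axl locus were compared with cells of low signal in mice that carried the reporter on both alleles. The comparison rests on 4 of the 8 arrays of the study, the 2 titled Axl LacZ/LacZ High and the 2 titled Axl LacZ/LacZ Low, and 16593 genes were measured. All mice were nulliparous, 16 weeks old and of the B6.129P2-AXLtm1Dgen strain, and the labels name no treatment. The other 4 arrays were of Axl LacZ/+ mice, in which 1 allele carried lacZ, sorted into the same gates. In every group the sorted cells were single, negative for propidium iodide and negative for CD45, CD31 and CD11b. FDG, a galactoside that turns fluorescent when the lacZ product cleaves it, set the gates: the brightest 5% of cells made up the FDG-high gate and the dimmest 65% the FDG-low gate. Each sample was a pool of glands of several mice. The insertion disrupts Axl, so homozygous cells of either gate lack an intact copy, and in them FDG reads the activity of the locus, not the receptor. Whether the 2 arrays of a group came from separate pools is not stated, so the p-values below reflect how far these arrays vary, which may be technical.

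Axl belongs, with Mertk and Tyro3, to the TAM receptor tyrosine kinases, whose ligands are the vitamin K-dependent proteins Gas6 and Pros1. The mammary duct is a bilayer of luminal cells, which carry keratins of simple epithelia and secrete milk, and of basal myoepithelial cells, which contract and rest on the basement membrane. Fibroblasts, adipocytes, vessels and immune cells surround the duct, and the antibodies of the sort were directed at endothelium and leukocytes.

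Levels are normalized log2 intensities, and a difference is FDG-high minus FDG-low in log2 units with its standard error from a limma model of all 8 arrays. Above background means, on each array, a value over the 95th percentile of 1323 probes for odorant and related receptors. Median raw intensities lay between 116 and 127 units on the 8 arrays. Between 53.4% and 55.5% of probes were above background on the homozygous FDG-high arrays, against 48.0% and 48.4% on the homozygous FDG-low arrays and 52.1% to 54.9% on the heterozygous ones. The homozygous FDG-low arrays were the closest to each other, with a Pearson correlation over genes of 0.980 and 51 genes more than 1 log2 unit apart. The FDG-high arrays correlated at 0.964, with 294 such genes, and FDG-high array 1 lay farther from the FDG-low arrays (769 and 739 genes) than array 2 did (393 and 353). All arrays lay on the same chip and their positions follow the groups, so position and group cannot be told apart.

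The labels were compared with the genes they name. In homozygous glands the Axl probe gave 6.07 and 6.40 in FDG-high and 6.24 and 6.39 in FDG-low cells, near background and overlapping (-0.08 ± 0.20, adjusted p = 0.930), so its level does not check their gates. In heterozygous glands it gave 8.88 and 9.12 in FDG-high and 8.44 and 7.97 in FDG-low cells (0.80 ± 0.20, adjusted p = 0.243), well above the homozygous level in either gate. Of the antibody targets, the CD45 gene Ptprc and the CD11b gene Itgam were not above background on any homozygous array, while the CD31 gene Pecam1 was above it on all 4, at a mean of 6.81 and 6.73. Glb1, the endogenous lysosomal galactosidase that can also cleave FDG, differed by -0.16 ± 0.19 (adjusted p = 0.812). The 13 measured lysosomal glycosidase genes had a median difference of -0.08 with no call, and 3 of them were positive. These are RNA levels: enzyme activity was not measured, and its part in the FDG signal was not tested.

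In homozygous glands the genes that rose in FDG-high cells included keratins, desmosome genes, epithelial transcription factors, contractile genes and histones. Those that fell included 2 beta globins, the eosinophil gene Prg2, the chemokine Ccl21b, the elastase Mmp12 and the chromatin genes Arid3a and Jarid2. At an adjusted p under 0.05, 65 of 16593 genes differed between the gates (0.392%): 43 rose (0.259%) and 22 fell (0.133%) with FDG signal. The higher genes had differences between 0.83 and 2.91 with a median of 1.56, and the lower genes between -0.76 and -2.03 with a median of -1.14. Adjusted p-values lay between 0.0065 and 0.0494. Among all genes the median difference was -0.01, and 2145 genes had an unadjusted p under 0.05, 1103 of them higher and 1042 lower. In RNA of sorted pools, fewer cells of a type and less RNA per cell cannot be told apart. Of the 43 risen genes, 40 lay farther from the FDG-low mean on FDG-high array 1 than on array 2 (8893 of 16593 among all genes), as did 11 of the 22 fallen genes. These calls draw their error from all 8 arrays: with the 4 homozygous arrays fitted alone limma called 0 genes, with 2454 at an unadjusted p under 0.05, and leaving out 1 homozygous array gave between 0 and 137.

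**Figure D1:**
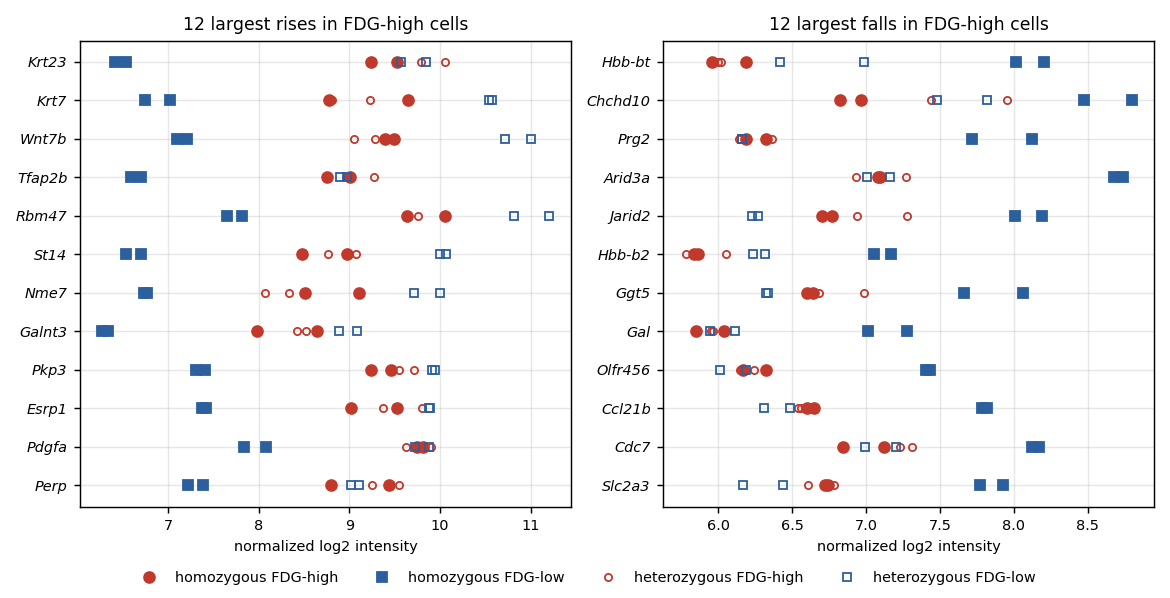
Normalized log2 intensity (horizontal axes) of the 12 genes with the largest rises and the 12 with the largest falls in homozygous FDG-high cells. Each symbol is 1 array: filled circles and squares are homozygous FDG-high and FDG-low, open ones the heterozygous gates. The homozygous FDG-low squares lie apart from all other symbols, to the left for the rises and to the right for the falls.

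Keratins build the intermediate filaments of epithelia, and 2 of the 16 measured keratins rose. Krt23, a type I keratin, was at 9.53 and 9.24 on the FDG-high arrays and at 6.42 and 6.53 on the FDG-low arrays. The groups did not overlap, and the difference of 2.91 ± 0.16 was the largest of all genes called (7.52-fold, adjusted p = 0.0065). Krt7, a type II keratin of ducts and simple epithelia, stood at 9.65 and 8.78 against 6.75 and 7.03, and its difference of 2.33 ± 0.29 was carried more by FDG-high array 1 (adjusted p = 0.0474). Of the 16 keratins, 15 had a positive difference, with a median of 1.12, where 48.0% of all genes were positive. The basal keratins Krt5 (2.07 ± 0.30, adjusted p = 0.063) and Krt17 (1.96 ± 0.38, adjusted p = 0.106) had large differences that did not pass. The mean level of the 16 keratins was 8.49 and 8.06 on the FDG-high arrays and 7.12 and 7.24 on the FDG-low arrays.

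The genes with the largest changes are shown with the 250 bases before their annotated start, taken from RefSeq on the GRCm38.p6 build and written from 5′ to 3′ on the strand of the gene, since members of a set that moved together can be read side by side there. Capitals mark matches, on either strand, to GCCNNNGGC (AP-2 factors), CACCTG (the E-box of Zeb and Snail factors), AACCNGGTT (grainyhead-like factors) or TATAAA, each counted on its own even where matches overlap. The 4 rises with an entry come first, then the 2 falls.
Krt23: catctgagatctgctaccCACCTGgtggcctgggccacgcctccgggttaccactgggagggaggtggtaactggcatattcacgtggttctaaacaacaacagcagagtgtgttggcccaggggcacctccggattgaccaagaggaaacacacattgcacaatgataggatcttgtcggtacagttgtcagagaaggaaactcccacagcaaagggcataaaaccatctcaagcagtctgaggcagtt
Krt7: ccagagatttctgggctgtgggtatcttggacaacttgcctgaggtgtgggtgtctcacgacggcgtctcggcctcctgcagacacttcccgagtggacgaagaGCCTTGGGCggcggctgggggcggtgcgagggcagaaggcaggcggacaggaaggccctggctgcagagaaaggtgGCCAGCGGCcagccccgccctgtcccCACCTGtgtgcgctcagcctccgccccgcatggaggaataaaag
Tfap2b: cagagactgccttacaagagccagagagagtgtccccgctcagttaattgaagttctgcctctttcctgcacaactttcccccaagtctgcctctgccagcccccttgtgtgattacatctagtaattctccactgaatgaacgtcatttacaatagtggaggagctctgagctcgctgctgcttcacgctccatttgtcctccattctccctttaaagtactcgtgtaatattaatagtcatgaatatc
Rbm47: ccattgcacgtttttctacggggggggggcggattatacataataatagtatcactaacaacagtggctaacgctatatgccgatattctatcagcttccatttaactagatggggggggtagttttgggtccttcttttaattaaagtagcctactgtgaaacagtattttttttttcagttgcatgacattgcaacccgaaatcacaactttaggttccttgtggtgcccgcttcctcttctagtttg
Hbb-bt: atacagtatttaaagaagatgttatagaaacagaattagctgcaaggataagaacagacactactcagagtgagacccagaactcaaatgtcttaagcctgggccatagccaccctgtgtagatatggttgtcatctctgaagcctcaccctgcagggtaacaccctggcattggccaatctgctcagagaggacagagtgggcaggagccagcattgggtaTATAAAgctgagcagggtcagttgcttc
Chchd10: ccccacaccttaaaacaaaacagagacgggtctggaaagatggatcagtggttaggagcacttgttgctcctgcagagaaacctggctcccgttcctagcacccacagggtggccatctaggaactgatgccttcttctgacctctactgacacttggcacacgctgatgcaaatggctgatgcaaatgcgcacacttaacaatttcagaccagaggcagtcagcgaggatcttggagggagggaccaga
The Krt23 stretch lies at chr11:99493121-99493370 on the minus strand and holds an E-box that begins at base -232 from the start. The Krt7 stretch, at chr15:101412153-101412402 on the plus strand, holds AP-2 matches at -146 and -70 and an E-box at -44. The stretches of Tfap2b (chr1:19211804-19212053 on the plus strand), Rbm47 (chr5:66151955-66152204 on the minus strand) and Chchd10 (chr10:75932880-75933129 on the plus strand) hold none of the letters searched. That of Hbb-bt, at chr7:103813924-103814173 on the minus strand, holds TATAAA at -28. Over the window from 250 bases before to 50 after the start, the AP-2 letters occurred in 32.4% of the 34 risen genes with an entry, in 21.4% of the 14 fallen genes and in 20.7% of 13335 genes. The E-box letters occurred in 29.4%, 14.3% and 18.8%, and TATAAA in 14.7%, 7.14% and 12.7%. The grainyhead letters were found in 0 risen or fallen genes and in 0.247% of all. These shares describe letters in a window and say nothing of binding.

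Cell junction genes hold epithelial sheets together, and 2 of 22 measured rose. Pkp3, a plakophilin of the desmosome, was at 9.46 and 9.24 against 7.41 and 7.30, with the arrays of each gate close together (1.99 ± 0.11, adjusted p = 0.0065). Perp, a desmosomal membrane protein, was at 9.44 and 8.80 against 7.22 and 7.39, and both FDG-high arrays lay above both FDG-low arrays (1.82 ± 0.22, adjusted p = 0.042). The tight junction gene F11r (1.81 ± 0.27) and the connexin Gjb2 (2.01 ± 0.66) had adjusted p-values of 0.066 and 0.275. In all, 21 of 22 junction genes had a positive difference, with a median of 0.82. The list mean was 7.78 on FDG-high array 1, 7.19 on array 2, and 6.62 and 6.65 on the FDG-low arrays, so array 2 lay nearer to the FDG-low level. Cdh1, which encodes E-cadherin and was picked after its value was seen, was almost level at a difference of 0.09 ± 0.24 (adjusted p = 0.931).

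Among 19 epithelial transcription and splicing factors, 4 rose and all 19 had a positive difference (median 0.67). Tfap2b, a transcription factor of the AP-2 family, was at 9.01 and 8.75 against 6.59 and 6.70, and the gates were far apart (2.23 ± 0.14, adjusted p = 0.0065). Its other 3 probes gave 0.99, 1.00 and 1.24. Grhl2, a grainyhead-like factor that maintains epithelial junction genes, was at 8.20 and 7.83 against 6.54 and 6.20, the last of these near background (1.64 ± 0.19, adjusted p = 0.0373). Esrp1, which directs epithelial splicing, was at 9.52 and 9.02 against 7.42 and 7.37 (1.88 ± 0.20, adjusted p = 0.034). Rbm47, which encodes an RNA-binding protein, was at 10.06 and 9.64 against 7.81 and 7.65 (2.12 ± 0.19, adjusted p = 0.0212). For Rbm47 the 4 dimmer probes gave only 0.12 to 0.43, and with the mean of its probes the adjusted p was 0.0742. Trp63, the p63 gene of basal epithelium, had a difference of 1.95 ± 0.42 that did not pass (adjusted p = 0.131).

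Matriptase and its inhibitors act at the surface of epithelial cells, and 2 of 12 membrane serine proteases and inhibitors rose. St14, which encodes matriptase, was at 8.97 and 8.47 against 6.54 and 6.70 (2.10 ± 0.19, adjusted p = 0.0212), and a dimmer probe gave 0.80. Spint2, a Kunitz-type inhibitor of such proteases, was at 9.76 and 9.71 against 8.48 and 8.26 (1.37 ± 0.10, adjusted p = 0.0145), while its second probe was below background. The FDG-high arrays lay closer together for Spint2 than for St14, while the FDG-low arrays did not. Tmprss13 was at least 2.75-fold higher in FDG-high cells, at a mean of 7.66 against 6.05, and did not pass (adjusted p = 0.181). Over the 12 genes the median was 0.40, with 8 positive.

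Basal and myoepithelial markers had the highest median of the lists, at 1.52 over 17 measured genes, of which 14 were positive and 2 rose. Acta2, the smooth muscle actin of myoepithelial cells, was at 11.88 and 11.66 against 9.89 and 10.13 (1.76 ± 0.15, adjusted p = 0.0212), and its other 3 probes gave 1.47 to 1.94. Tpm2, a tropomyosin of the contractile apparatus, was at 10.50 and 10.22 against 9.07 and 8.95 (1.35 ± 0.15, adjusted p = 0.0373). However, its dimmer probes gave 0.23 and 0.57, and with the mean of probes the adjusted p was 0.261. Myosin and its kinase followed without a call on their brightest probes, Myh11 at 2.00 ± 0.45 (adjusted p = 0.140) and Mylk at 2.05 ± 0.31 (adjusted p = 0.067). The dimmer Mylk probe gave 1.71 ± 0.15 (unadjusted p = 1.7e-05 in limma). The smooth muscle gamma actin Actg2 was at least 3.79-fold higher, at a mean of 8.12 against 5.94 (adjusted p = 0.082). The list mean was 8.97 and 8.51 in FDG-high cells and 7.47 and 7.53 in FDG-low cells. Integrins and laminins had 11 of 19 positive, a median of 0.33 and 1 call. Both FDG-high arrays lay above both FDG-low arrays for 10 of the 19 and below them for 6, where 3538 and 3870 of 16593 genes did so. Itga6, a subunit of laminin-binding integrins, rose from 6.95 and 6.99 to 8.24 and 8.17 (1.23 ± 0.14, adjusted p = 0.0353). Collagen chains had 8 of 19 positive, a median of -0.16 and 1 call. Of the 19, 6 were higher and 10 lower on both FDG-high arrays, against the same 3538 and 3870 of 16593 genes. Their call, Col4a6, a chain of basement membrane collagen, was at least 1.57-fold higher, at a mean of 6.85 against 6.03 (adjusted p = 0.0494). Its other probes gave 0.45 and 0.84, and with the mean of probes the adjusted p was 0.135. Itgb4, Lamb3 and Col17a1, parts of the hemidesmosome and its ligand, had differences of 1.52 ± 0.53, 1.96 ± 0.48 and 2.12 ± 0.55 that did not pass. In the other direction the integrin Itga5 (-0.72 ± 0.28, adjusted p = 0.343) and the collagen Col5a3 (-0.84 ± 0.33, adjusted p = 0.358) were the extremes, also without a call.

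Luminal markers had smaller medians. None of 16 luminal progenitor markers rose, although 14 were positive with a median of 0.35. The lactoferrin gene Ltf (1.91 ± 0.32, adjusted p = 0.079), Wfdc18 (1.90 ± 0.40, adjusted p = 0.128) and the lipocalin Lcn2 (1.62 ± 0.25, adjusted p = 0.070) had the largest differences. Of 14 hormone-sensing luminal markers 12 were positive, with a median of 0.30, and Ptn rose. Ptn, a heparin-binding growth factor, was at 9.91 and 9.75 against 8.23 and 8.30, with tight gates (1.56 ± 0.10, adjusted p = 0.0065). Milk protein and secretion genes had 8 of 13 positive and a median of 0.12, with no call.

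**Figure D2:**
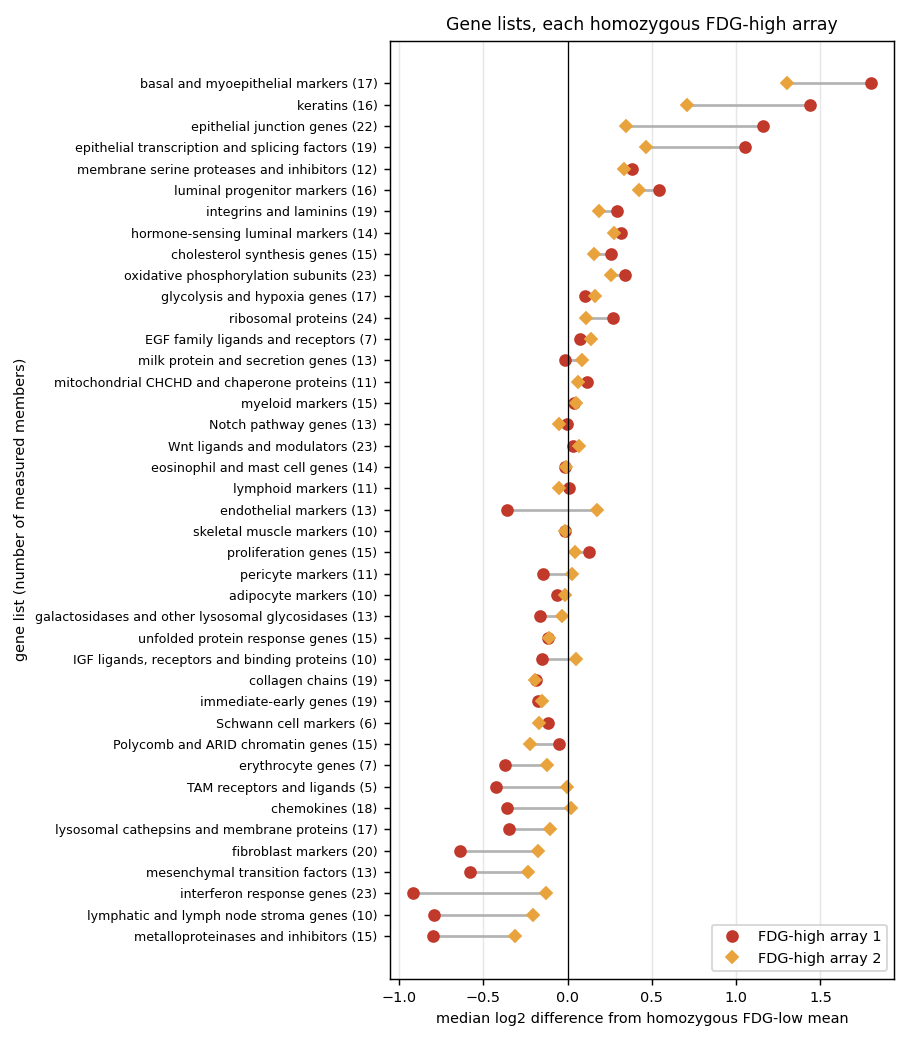
Median log2 difference (horizontal axis) of each gene list from the mean of the homozygous FDG-low arrays, for FDG-high array 1 (circles) and array 2 (diamonds), with the number of measured members in brackets. Basal markers, keratins and junction genes lie to the right on both arrays, and metalloproteinases, fibroblast markers and interferon genes to the left. Array 1 lies farther out than array 2 for these lists, as for junction genes (1.16 against 0.34) and interferon genes (-0.92 against -0.13), while endothelial markers lie on opposite sides (-0.36 and 0.17).

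Among ligands, Wnt7b, a Wnt ligand made by epithelia, was at 9.50 and 9.40 against 7.09 and 7.20, with almost no spread within a gate (2.30 ± 0.14, adjusted p = 0.0065). Its second probe was below background in both gates and gave 0.00. It was the only call among 23 Wnt ligands and modulators, whose median was 0.00. Pdgfa, a growth factor that acts on stromal PDGF receptors, was at 9.75 and 9.81 against 7.84 and 8.08 and did not lean on array 1 (1.82 ± 0.14, adjusted p = 0.0145). The insulin-like growth factor binding protein gene Igfbp3, at 1.68 ± 0.28, did not pass (adjusted p = 0.079). The receptor gene Ephb1 was at least 2.53-fold higher, at a mean of 7.54 against 6.01 (adjusted p = 0.0474).

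Other risen genes serve secretion, transport and signalling. Galnt3, which starts mucin-type glycosylation, was at 8.64 and 7.99 against 6.34 and 6.27 (2.01 ± 0.21, adjusted p = 0.0327). Nme7, of the nucleoside diphosphate kinase family, was at 9.11 and 8.51 against 6.77 and 6.73 (2.06 ± 0.22, adjusted p = 0.0327). For Nme7, 1 of the other 5 probes gave 1.93 and the rest 0.07 to 0.31. Aqp5, a water channel of secretory epithelia, rose by 1.09 ± 0.13 on 1 of 2 probes, the other being below background. Tmc4, of a family of transmembrane channels, was at least 2.19-fold higher, at a mean of 7.33 against 6.05 (adjusted p = 0.0231). Pik3cb, a catalytic subunit of PI3-kinase, rose by 1.75 ± 0.19, Tpd52 by 1.81 ± 0.23 and the secreted WAP-domain protein gene Wfdc2 by 1.58 ± 0.13. The other Wfdc2 probe, above background on all 4 arrays, gave 0.57, and with the mean of both the adjusted p was 0.068. Slc35f3, Mansc1, Plet1, Sft2d2, Tmem176b and Nhsl1 rose by 1.26 to 1.72. The other Mansc1 probe gave 0.63 and the other Sft2d2 probes 0.53 and 1.21. With the mean of probes the adjusted p was 0.068 for Mansc1 and 0.062 for Sft2d2.

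Histone genes and a respiratory chain gene also rose. H1f2, a linker histone, was at 11.10 and 11.09 against a mean of 9.54, with the smallest standard error of the called genes (1.56 ± 0.09, adjusted p = 0.0065). The core histone genes H2bc12, H2bc14 and H2bc15 rose by 1.27 ± 0.16, 1.26 ± 0.16 and 1.21 ± 0.15, and H2bc11 had 1.18 ± 0.16 just outside the threshold (adjusted p = 0.0536). These copies are near-identical, so a probe may read several of them and they are not separate observations. The transcription initiation gene Gtf2f2 rose by 1.15 ± 0.13. Ndufa4, a subunit of the respiratory chain, was at 10.17 and 9.87 against 8.96 and 8.91 (1.08 ± 0.13, adjusted p = 0.0406). Of 23 oxidative phosphorylation subunits 21 were positive, with a median of 0.25, and in 17 both FDG-high arrays lay above both FDG-low arrays, where 3538 of 16593 genes did so. The copper chaperone Atox1, the mitochondrial ribosomal gene Mrps18c, the tRNA synthetase gene Qars, Armc10 and the peroxiredoxin Prdx2 rose by 0.87 to 1.09. For Prdx2 the other probes gave 0.41 and 0.56, and with the mean of probes the adjusted p was 0.190. Ribosomal proteins had 22 of 24 positive with a median of 0.17 and no call.

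**Figure D3:**
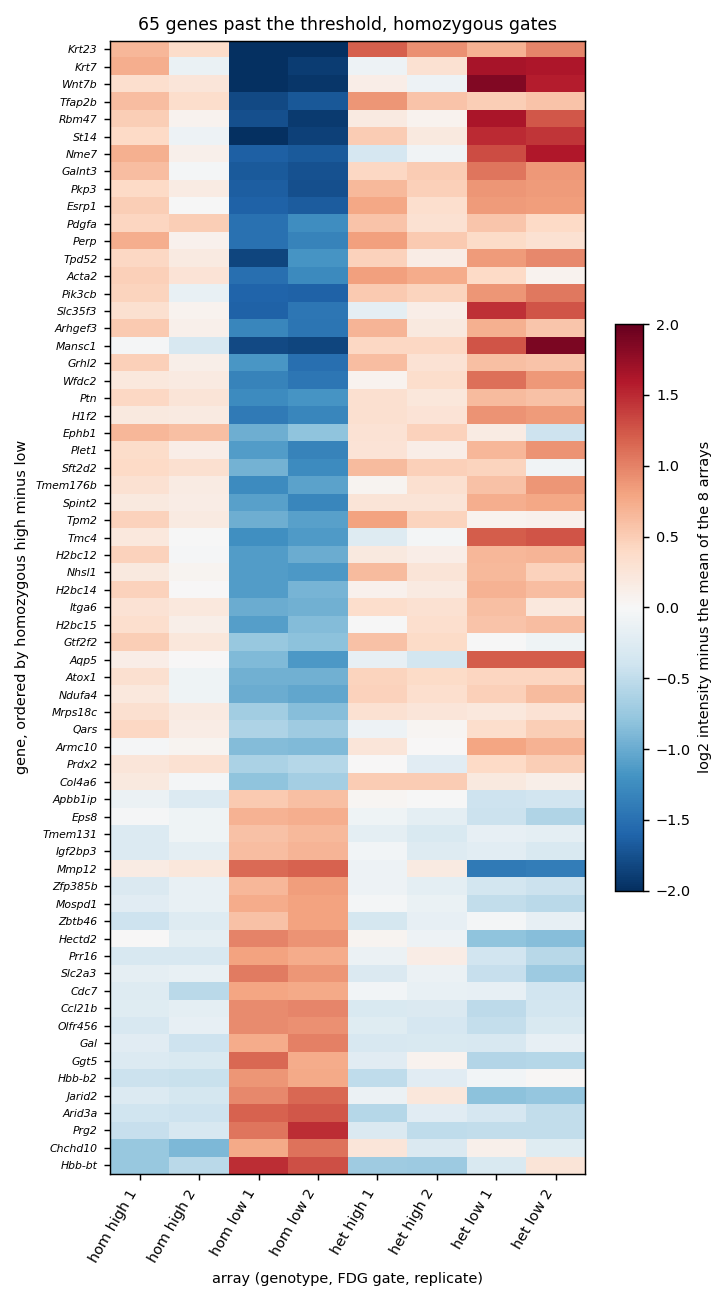
Log2 intensity of the 65 called genes (rows, from the largest rise to the largest fall) on all 8 arrays (columns), each relative to the gene's mean over the arrays (red above, blue below). The homozygous FDG-low columns hold the lowest values in the upper 43 rows and the highest in the lower 22 rows.

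Among the 22 fallen genes, globins had the largest fall. Hbb-bt, a beta globin, was at 5.96 and 6.19 in FDG-high cells, of which only the latter was above background, and at 8.20 and 8.01 in FDG-low cells (-2.03 ± 0.20, adjusted p = 0.0247). Hbb-b2 was at least 2.01-fold lower, at a mean of 5.85 against 7.11 (adjusted p = 0.0231), and the alpha globin Hba-a1 differed by -2.10 ± 0.38 without a call (adjusted p = 0.0901). The beta globin copies share sequence, so their probes may not be independent. Picked after their values were seen, the erythrocyte genes Alas2, Slc4a1 and Epb42 were below background on all 4 arrays and Klf1 was above it on 1. The mean of the 7 measured erythrocyte genes was 5.92 and 5.97 in FDG-high and 6.75 and 6.74 in FDG-low cells. The part of red cells in the pools in this difference was not tested.

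Prg2, the major basic protein of eosinophils, was at 6.18 and 6.33 against 7.71 and 8.12 (-1.66 ± 0.16, adjusted p = 0.0236). It stood alone among 14 measured eosinophil and mast cell genes, of which 4 were above background on any homozygous array, and the list median was -0.01. Ccl21b, a chemokine of lymphatic vessels and lymph node stroma, was at 6.60 and 6.65 against 7.78 and 7.82 (-1.17 ± 0.09, adjusted p = 0.0172). Its near-identical copy Ccl21a differed by -1.01 ± 0.14 (adjusted p = 0.063). Of 10 lymphatic and lymph node stroma genes 2 were positive, with a median of -0.55 and list means of 7.05 and 7.32 against 7.52 and 7.45. Leukocyte lists were dim: 4 of 15 myeloid and 1 of 11 lymphoid markers were above background on any homozygous array, with medians of 0.06 and -0.01. No member of either list was called. Both FDG-high arrays lay above both FDG-low arrays for 7 myeloid markers and below them for 0. Among all 16593 genes these counts were 3538 and 3870. Zbtb46, a transcription factor known from dendritic cells, fell by 1.03 ± 0.13.

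Metalloproteinases and their inhibitors had 13 of 15 negative differences, a median of -0.57 and 1 call. Mmp12, an elastase best known from macrophages, was at 7.67 and 7.72 against 8.63 and 8.67 (-0.96 ± 0.11, adjusted p = 0.0398). The collagenase Mmp13 (-1.68 ± 0.28, adjusted p = 0.079) had a larger difference that did not pass, and Mmp11 stood at a mean of 6.26 against 7.76 (adjusted p = 0.123). Of 13 mesenchymal transition factors 4 were positive, with a median of -0.38 and no call. Twist2 was at 7.11 and 7.84 against 9.48 and 9.58 (-2.05 ± 0.35, adjusted p = 0.0816) and Twist1 differed by -1.42 ± 0.34 (adjusted p = 0.160). Fibroblast markers had 15 of 20 negative, a median of -0.38 and no call. Their mean level was high in both gates, 9.06 and 9.44 in FDG-high and 9.54 and 9.52 in FDG-low cells.

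Polycomb and ARID chromatin genes held 2 of the falls. Arid3a, a DNA-binding protein with an AT-rich interaction domain, was at 7.10 and 7.08 against 8.68 and 8.73, with the arrays of each gate nearly equal (-1.62 ± 0.13, adjusted p = 0.0182). Jarid2, a partner of Polycomb repressive complex subunits, was at 6.77 and 6.70 against 8.01 and 8.19 (-1.36 ± 0.13, adjusted p = 0.0263). Of the 15 genes of that list, 12 had a negative difference (median -0.20). Cdc7, a kinase that fires replication origins, fell by 1.16 ± 0.13 on the brighter of 2 probes, the other being below background, although 15 proliferation genes had a median of -0.03.

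Falls in metabolism and signalling included Chchd10, a protein of the mitochondrial intermembrane space, at 6.97 and 6.83 against 8.47 and 8.80 (-1.74 ± 0.21, adjusted p = 0.0457). Its list of mitochondrial CHCHD and chaperone proteins had 7 of 11 positive and a median of 0.10, where Chchd10 was the only call. Slc2a3, a glucose transporter, was at 6.72 and 6.74 against 7.93 and 7.77 (-1.12 ± 0.13, adjusted p = 0.0373), whereas Slc2a1, which serves the same transport, differed by 0.82 ± 0.22 (adjusted p = 0.197). The neuropeptide gene Gal was at least 2.05-fold lower, at a mean of 5.94 against 7.14 (adjusted p = 0.034). Ggt5, a gamma-glutamyl transferase, fell by 1.24 ± 0.16, but its other 2 probes gave -0.23 and -0.22. Olfr456, an odorant receptor gene of the family used to set the background level, fell by 1.17 ± 0.11. Hectd2 fell by 1.04 ± 0.11 and its other probes gave -1.04 and -0.87, and Mospd1 fell by 0.97 ± 0.09 with -0.95 and -0.46. Prr16, Zfp385b, Igf2bp3, Tmem131, Eps8 and Apbb1ip fell by 0.76 to 1.10. For Igf2bp3 the other probe gave -0.23, and the mean of probes gave -0.56 (adjusted p = 0.081). With the mean of probes for every gene, 52 of the 65 calls were kept.

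None of the following lists held a call. Interferon response genes had 20 of 23 negative with a median of -0.49, and their mean was 7.42 on FDG-high array 1 against 8.09 on array 2 and 8.24 and 8.25 on the FDG-low arrays. The hypoxia-responsive prolyl hydroxylase gene Egln3 was at 9.58 and 8.37 against 6.66 and 6.66 (2.31 ± 0.38, adjusted p = 0.0791), in a glycolysis and hypoxia list with a median of 0.18. Cholesterol synthesis genes had a median of 0.25, immediate-early genes of -0.18, lysosomal cathepsins of -0.24, chemokines of -0.23 and unfolded protein response genes of -0.10. Pericyte, endothelial, adipocyte, Schwann cell and skeletal muscle markers had medians of -0.07, -0.01, -0.07, -0.19 and -0.01. Medians were 0.01 for Notch genes, 0.14 for EGF family genes and -0.10 for insulin-like growth factor genes. Just outside the threshold stood Lad1, Taf13, Tctex1d2 and Ddit4 among the higher genes (adjusted p between 0.0534 and 0.0581) and G0s2, Cndp2, Nek6, Fermt2 and Gpr176 among the lower ones (0.0547 to 0.0613).

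Of the TAM receptors and ligands, none passed. Mertk was at 6.50 and 6.53 against 7.12 and 6.81, lower on both FDG-high arrays (-0.45 ± 0.17, adjusted p = 0.332). Tyro3 was above background on 1 of 4 arrays (0.05 ± 0.15). Gas6 was at 7.25 and 8.17 against 8.25 and 7.94 and the gates overlapped (-0.39 ± 0.38), as they did for Pros1 (-0.21 ± 0.21).

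The homozygous FDG-low cells held an outlying level of every called gene among the 4 groups of the study. Their mean was the lowest of the 4 group means for all 43 risen genes and the highest for all 22 fallen genes, whereas it was the lowest or highest for 62.8% of all genes. The homozygous FDG-high mean was the opposite extreme for a few, the highest for 1 risen gene and the lowest for 5 fallen genes. Among all 16593 genes it was the highest for 2967 and the lowest for 3509. Both homozygous FDG-low arrays lay outside the range of the 4 heterozygous arrays for 65 of 65 called genes (5568 of 16593 among all genes). Both homozygous FDG-high arrays did so for 10 of the 43 risen and 3 of the 22 fallen genes (2985 of 16593 among all genes). Arid3a had means of 7.09 in homozygous FDG-high, 7.10 in heterozygous FDG-high and 7.08 in heterozygous FDG-low cells against 8.71 in homozygous FDG-low cells. Prg2 did likewise, at 6.26, 6.25 and 6.16 against 7.92, and Krt23 in the other direction, at 9.38, 9.92 and 9.70 against 6.47. Because the genes were chosen by a comparison that includes the FDG-low arrays, these counts describe the levels and are not a further test.

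The genotype comparisons share arrays with the gate comparison, and their values are set beside it only as levels. In FDG-low cells 1397 of 16593 genes differed between homozygous and heterozygous glands (8.42%), 629 higher and 768 lower in homozygous cells, with 3723 at an unadjusted p under 0.05. In FDG-high cells limma called 0 genes (0%), with 639 at an unadjusted p under 0.05. Even Axl, the disrupted gene, did not pass there at -2.76 ± 0.20 (adjusted p = 0.079), so 0 calls does not mean equal levels. Over the 43 risen genes the median difference was 1.56 between the homozygous gates, -0.45 between the heterozygous gates, -1.93 between homozygous and heterozygous FDG-low cells and -0.08 between homozygous and heterozygous FDG-high cells. Over the 22 fallen genes these medians were -1.14, 0.16, 1.27 and -0.07. Fibroblast markers had a median of 1.84 between FDG-low cells of the genotypes and of -0.05 between FDG-high cells. Unlike for the called genes, the heterozygous FDG-low arrays held their outlying level, at a mean of 7.12 and 8.28. The mean was 8.85 and 9.72 in heterozygous FDG-high, 9.06 and 9.44 in homozygous FDG-high and 9.54 and 9.52 in homozygous FDG-low cells. For junction genes the median was -1.54 between FDG-low cells and -0.04 between FDG-high cells.

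**Figure D4:**
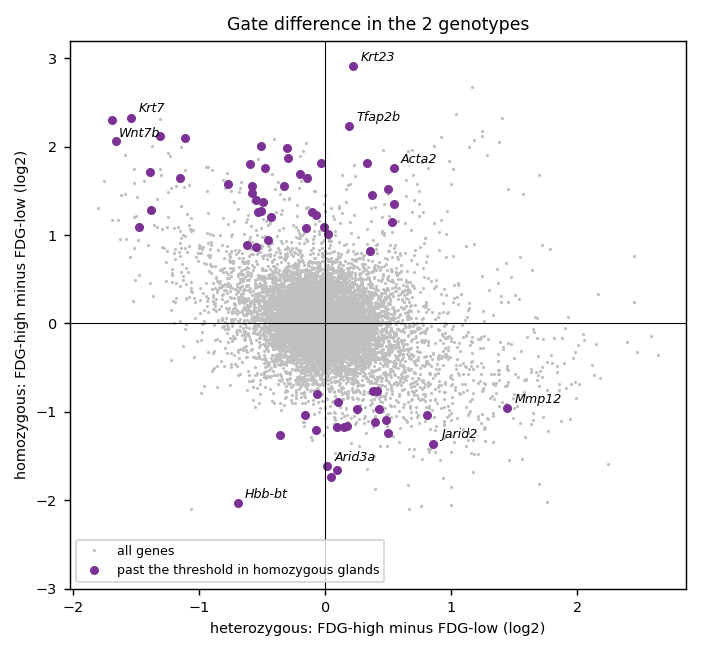
Gate difference of each gene (FDG-high minus FDG-low, log2) in homozygous glands (vertical axis) against that in heterozygous glands (horizontal axis). Grey points are all genes and purple points the 65 called in homozygous glands. Wnt7b and Krt7 lie at the upper left, Mmp12 and Jarid2 at the lower right, and Krt23, Tfap2b and Arid3a near the vertical zero line.

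The gate difference of homozygous glands was tested against that of heterozygous glands by the interaction in the same limma model, which passed for 135 genes (0.814%). Among the 65 called genes it passed for 49, 33 of the 43 risen and 16 of the 22 fallen. The gate difference is part of the interaction, so this overlap is in part given. The heterozygous difference had the opposite sign for 33 of the 43 risen and 17 of the 22 fallen genes, where 9014 of 16593 genes had opposite signs. Between the heterozygous gates 0 of the 65 genes passed in limma, the smallest adjusted p being 0.0554. Among all 16593 genes only 1 passed there, so the 0 is no trait of these 65. Wnt7b differed by 2.30 between the homozygous and by -1.70 between the heterozygous gates (interaction 3.99 ± 0.19, adjusted p = 0.0073). Krt7 followed with 2.33 and -1.54 (3.87 ± 0.41, adjusted p = 0.024). Mmp12 differed by -0.96 and 1.44 (-2.40 ± 0.16, adjusted p = 0.0096) and Jarid2 by -1.36 and 0.86 (-2.22 ± 0.19, adjusted p = 0.013). A second kind of gene was level between the heterozygous gates: Tfap2b differed there by 0.19 ± 0.14 and Arid3a by 0.01 ± 0.13, and both interactions passed (adjusted p = 0.021 and 0.028). Acta2 (0.54 ± 0.15 in heterozygous glands) and Tpm2 (0.54 ± 0.15) had the same sign in both genotypes, and their interactions of 1.22 ± 0.21 and 0.81 ± 0.22 did not pass (adjusted p = 0.070 and 0.165). Basal markers as a list had a positive median in both genotypes, 1.52 and 0.65, whereas junction genes had 0.82 and -0.58 and fibroblast markers -0.38 and 1.69.

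The number of calls rested on single arrays. In limma 0 genes passed when FDG-high array 1 was left out, and 0 when FDG-low array 1 or FDG-low array 2 of homozygous glands was. In these fits 1659, 1519 and 1703 genes had an unadjusted p under 0.05. Without FDG-high array 2, 137 genes passed, 42 of them among the 65. Without either heterozygous FDG-low array 19 passed. The direction of all 65 genes was kept in each of these fits. The homozygous gates did not overlap for any called gene, so leaving out 1 array could hardly turn a sign, and this is no test of stability. Without FDG-high array 1 the median absolute difference of the 65 genes was 1.30, against 1.35 with all arrays, and for Krt23 the difference was 2.76.

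**Figure D5:**
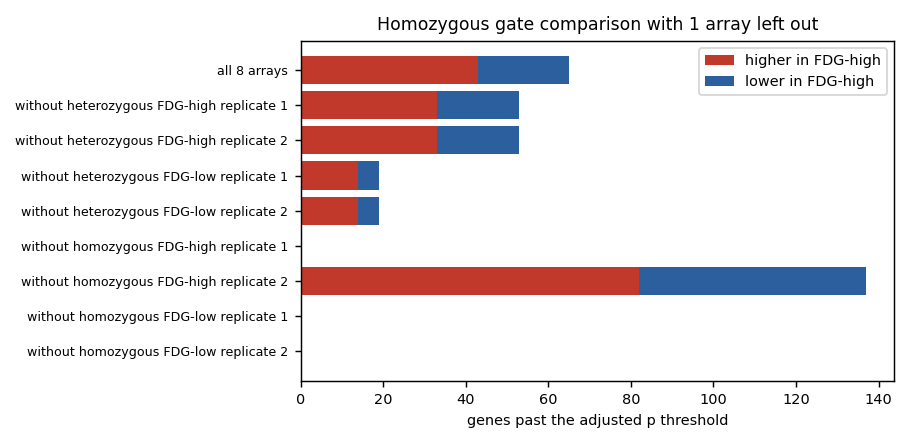
Number of genes past the adjusted p threshold (horizontal axis) in the homozygous gate comparison with all 8 arrays and with each array left out in turn, higher genes in red and lower genes in blue. The bars are empty without FDG-high array 1 and without either homozygous FDG-low array and reach 137 without FDG-high array 2.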

How the data were processed

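Biotin-labelled cRNA of sorted mammary cells was measured on 8 Illumina bead arrays, grouped by their titles. The authors deposited linear intensities of 25697 probes; no source used here gives the scanner's settings or its background handling. Per the labels, the authors analysed quantile normalized log2 values; those deposited are linear and not normalized. They were background corrected in limma 3.58.1 (R 4.3.3; normexp, offset 50), then quantile normalized and put on the log2 scale, which understates changes of dim genes. Of the probes, 23978 carried 1 symbol in the platform annotation and 1719 did not, 23962 matched the GRCm38.p6 gene table and 0 symbols changed. Each of the 16593 genes is represented by its brightest probe, and 4777 have others. A fold written as at least is a bound: with both arrays of a gate below background, each dim array enters at its lowest value above background, or at the probe's own value if higher.

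A limma model with 4 group means (4 residual and 2.36 prior degrees of freedom) was tested two-sided, with Benjamini-Hochberg adjustment over all genes at 0.05. It was tested on simulated data, and the number of arrays limits its precision. Genes named were taken from those called (1 of which is not reported here), the called and 4 most different members above background of each of 41 lists, the TAM genes, 5 per direction just outside the threshold and 5 per direction with the largest interaction, with those picked later named so or used as checks of the labels. Members and lists were chosen with earlier results of these data known. Alternatives changed the arrays fitted, scaling, background correction, offset, filter, probe summary, variance model and replicate block. The gene signatures and Rank Product analysis that the design text names were not used here.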

Additional observations from a re-analysis of the deposited data

Results flagged for a closer look

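For 49 genes the difference between FDG-high and FDG-low cells passed in homozygous glands and also differed from that in heterozygous glands by the interaction in limma. The 5 with the largest positive interaction (homozygous minus heterozygous difference, log2) were Wnt7b at 3.99, Krt7 at 3.87, Nme7 at 3.72, Rbm47 at 3.43 and St14 at 3.21, all with a rise in homozygous and a negative difference in heterozygous glands. None of the heterozygous differences passed on its own (adjusted p = 0.055 for Wnt7b, 0.167 for Krt7, 0.108 for Nme7, 0.116 for Rbm47 and 0.154 for St14). For Wnt7b, Nme7, Rbm47, St14 and, among those below, Ggt5 the values rest on the brightest probe, and with the mean of probes the homozygous difference did not pass for Rbm47 (adjusted p = 0.0742), St14 (0.0553) or Ggt5 (0.0977). The 5 with the largest negative interaction were Mmp12 at -2.40, Jarid2 at -2.22, Hectd2 at -1.85, Prg2 at -1.75 and Ggt5 at -1.74. Of these, Prg2 was near background in all groups but the homozygous FDG-low cells. Leaving out any single FDG-low array, of homozygous or of heterozygous glands, left few or no interactions past the threshold. The cause of these differences between genotypes was not tested.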

How the results depend on the processing

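All 65 called genes kept their direction in every alternative listed here, which their non-overlapping homozygous gates made likely beforehand, while the counts moved. The 4 homozygous arrays fitted alone gave 0 calls (smallest adjusted p = 0.0519, with 2454 genes at an unadjusted p under 0.05). Median centring gave 193 calls, 170 higher and 23 lower (88.1% higher against 66.2%), log2 of the value plus 16 without background correction 40, 18 and 22 (45.0% higher), and an offset of 16 in normexp 165, 124 and 41 (75.2% higher). Testing the 8932 genes above background gave 140, 101 and 39, and an intensity trend 141, 96 and 45. Interaction calls, 135 as reported, became 85 without background correction, 260 with the smaller offset, 280 with the filter and 276 with the trend. With the mean of all probes 59 genes passed and with robust estimation 48. With 1 array left out, calls ranged from 0 to 137, higher genes from 0 to 82, lower genes from 0 to 55 and interactions from 0 to 329. With the replicate block 52 genes passed, 38 higher and 14 lower, and 117 interactions. No label says that a number marks a shared animal or day, so this is no test of pairing; deviations of same-numbered samples correlated at 0.01 in homozygous and 0.40 in heterozygous glands. The cause of these shifts was not tested. The filter also changed the number of genes tested, and the fits that leave arrays out used fewer of them. With 2 arrays a group, precision is limited by their number, and for dim genes by signal over background.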
